A study of Mus musculus with 12 samples.

Results

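The genes described are Iars, which encodes cytosolic isoleucyl-tRNA synthetase, and 9 genes whose products sit with it in the multisynthetase complex. They were taken by name (Iars, Lars, Mars, Qars, Eprs, Rars, Kars, Dars, Aimp1 and Aimp2, the symbols of GENCODE M21, where Iars stands for Iars1), by a rule that uses no measured value, though earlier results of these data were known. All 10 were found among the 59136 entries of the count table. The series holds messenger RNA sequencing of mouse lung in 12 libraries, each labelled as day 28. The 6 Mut libraries (replicates 1, 2, 3, 4, 5 and 7) carried the IARS1 genotype Tyr148Cys/Arg444*, and the genotype field of their labels also calls them an IARS1 knockdown. The 6 WT libraries (replicates 1, 3, 4, 5, 6 and 7) were labelled WT for the same gene. The labels name lung as the tissue and primary cells as the material, and give neither strain nor sex. Whether each library stands for an animal of its own is not stated, so p-values measure the spread between these libraries, which may in part be technical.

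Aminoacyl-tRNA synthetases load each amino acid onto its transfer RNA and so supply the ribosome. In animal cells several of the cytosolic synthetases, among them those for isoleucine, leucine, methionine, glutamine, arginine, lysine, aspartate, glutamate and proline, are held together with small scaffold proteins in a single large assembly, while the others act on their own in the cytosol. Mitochondria use a separate set of enzymes, mostly encoded by genes of their own. In people, inherited variants on both copies of MARS1, the human counterpart of Mars, are a known cause of pulmonary alveolar proteinosis, in which surfactant fills the air spaces. The title of the series connects the Iars1 mutation with surfactant deposition in the lung.

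The libraries held 18870399 to 24014890 counts in Mut and 17118716 to 20119498 in WT. Of 19004 genes tested, 869 were higher (4.57%) and 1010 lower (5.31%) in Mut, together 9.89%, at a Benjamini-Hochberg adjusted p under 0.05 in edgeR's quasi-likelihood test, the meaning of "called" throughout. The split depended on scaling: the upper quartile gave 648 higher and 1242 lower genes, and library totals alone gave 518 and 1513. Markers of lung epithelium were abundant in every library (summed 29360 to 46990 CPM in Mut and 31820 to 50610 CPM in WT), and none of those 9 markers was called (2 at an unadjusted p under 0.05), nor any of 3 endothelial markers (1100 to 2435 CPM in Mut and 1835 to 2022 CPM in WT). Markers of other cells did differ. All 8 B cell markers (summed 167 to 279 CPM in Mut and 320 to 563 CPM in WT), all 5 T cell markers (41.5 to 71.4 CPM in Mut and 73.1 to 106 CPM in WT) and all 6 red blood cell markers (153 to 819 CPM in Mut and 981 to 5884 CPM in WT) were lower in Mut. Of 4 fat markers 3 were higher (21.1 to 140 CPM in Mut and 8.34 to 37.5 CPM in WT). None of the 4 heart muscle markers was called by edgeR (2 at an unadjusted p under 0.05), with sums of 212 to 1347 CPM in Mut and 132 to 519 CPM in WT. No marker was at 0 throughout, and the part of these cells in the results below was not tested. In such a mix of cells, fewer cells of a type and less RNA per cell cannot be told apart.

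Iars (ENSMUSG00000037851, protein-coding) lies on the plus strand of chr13:49682100-49734267 in GRCm38. To show where the labelled mutations fall, the reference codons of its longest coding transcript in GENCODE M21 are given with 12 coding bases on each side, the codon in capitals. Codon 148, in exon 5 of 34 at chr13:49690493-49690495, reads TAC and encodes tyrosine. Codon 444, in exon 14 at chr13:49706704-49706706, reads CGG and encodes arginine. Both residues are therefore those named in the genotype.
Iars codon 148: tttgacaatgacTACaaaacactatac
Iars codon 444: gtacgagaaaaaCGGtttggaaattgg

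Iars transcript itself was no lower in Mut on average. Its level in CPM (counts relative to the TMM-scaled library total, the unit of all levels unless another is named) was lowest at 41.4, had a median of 53.6 and was highest at 71.6 in Mut, against 35.6, 46.3 and 58.4 in WT. The groups overlapped: Mut replicates 4 and 5 lay above every WT library, while Mut replicate 7 lay below 4 of them. The means were 55.0 ± 10.7 CPM in Mut and 45.0 ± 8.57 CPM in WT (SD, n = 6 each). The log2 fold change was 0.29 (SE 0.14, 95% confidence interval −0.01 to 0.59) and was not called (edgeR adjusted p = 0.189). Without Mut replicate 4, the highest library, it was 0.19 (edgeR adjusted p = 0.399). With 903 to 1326 reads in Mut and 621 to 1015 in WT, counting error was small beside the spread between libraries, which was 19.5% of the mean in Mut and 19.1% in WT. A count per gene adds up the transcripts of both alleles. A predicted gene, Gm4849, matches 1656 bases of the Iars transcript at 96% identity but never had more than 3 reads.

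Of the 10 genes, 3 were higher and none was lower in Mut by edgeR, against 4.57% and 5.31% of all tested genes, and the same 3 were the only ones with an unadjusted p under 0.05. DESeq2 and limma-voom also called 3 higher and none lower. These were the same 3 genes, Mars, Eprs and Lars, whose 6 Mut libraries all lay above all 6 WT libraries, which held for 2.18% of all tested genes (2.39% the other way). The median log2 fold change of the 10 was 0.08, against 0.01 over all tested genes, and 6 of them had a positive sign, against 9785 of the 19004. All 10 had passed the filter on low counts.

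Mars, the methionyl-tRNA synthetase, which also charges the transfer RNA that starts every protein, showed the largest difference of the complex. Its lowest, median and highest levels were 66.1, 75.4 and 109.6 CPM in Mut, against 31.2, 41.1 and 46.7 CPM in WT. Even the lowest Mut library, replicate 7, was well above the highest WT library, which was also a replicate 7. The mean was 79.8 ± 15.9 CPM in Mut and 40.5 ± 5.25 CPM in WT, 1.97-fold higher in Mut, with a log2 fold change of 0.98 (SE 0.12, interval 0.72 to 1.24, edgeR adjusted p = 0.000469). Mars (ENSMUSG00000040354, chr10:127296221-127311786, minus strand) shares 68 exon bases, 1.99% of its exon length, with Ddit3 on the opposite strand. Ddit3 had a log2 fold change of 0.33 (edgeR adjusted p = 0.0954). The protocols describe no step that keeps the strand, so reads from those bases could have come from either gene.

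Eprs joins the synthetases for glutamate and proline in a single protein. Its lowest, median and highest levels were 163, 172 and 181 CPM in Mut, against 119, 125 and 140 CPM in WT. No Mut library came down to the WT range, and the spread within each group was narrow (4.34% of the mean in Mut and 7.06% in WT). The mean of 171 ± 7.43 CPM in Mut was 1.34-fold that of 128 ± 9.04 CPM in WT, a log2 fold change of 0.42 (SE 0.07, interval 0.27 to 0.56, edgeR adjusted p = 0.00274). Eprs (ENSMUSG00000026615) lies on the plus strand of chr1:185363044-185428360.

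Lars encodes leucyl-tRNA synthetase, which has also been described as a leucine sensor upstream of the growth kinase complex mTORC1. Its lowest, median and highest levels were 63.6, 77.1 and 85.9 CPM in Mut and 56.5, 59.3 and 62.1 CPM in WT. Here the groups stood apart by a small margin only, between Mut replicate 3 and WT replicate 3, and the WT libraries were more alike (3.77% of the mean) than the Mut libraries (11.1%). Lars averaged 77.0 ± 8.55 CPM in Mut and 59.2 ± 2.23 CPM in WT. In deposited FPKM, without TMM scaling, the groups met, at 16.1 to 21.9 in Mut and 14.6 to 16.7 in WT. The log2 fold change was 0.38 (SE 0.08, interval 0.21 to 0.55, edgeR adjusted p = 0.00887). Lars (ENSMUSG00000024493) is annotated on the minus strand of chr18:42202298-42262194.

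**Figure D1:**
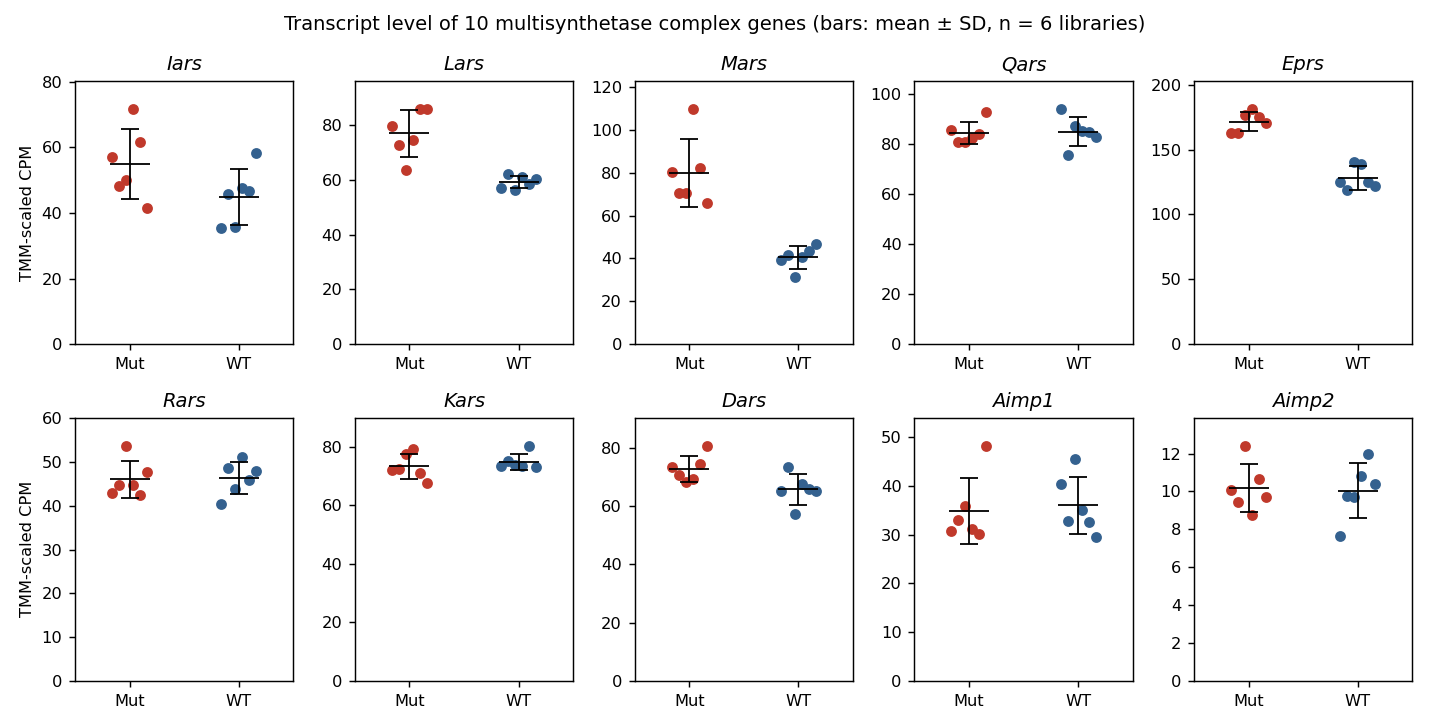
TMM-scaled CPM (vertical axes, each from 0) of the 10 complex genes in the 6 Mut and 6 WT libraries, with mean ± SD. Mars, Eprs and Lars have all 6 Mut points above all 6 WT points, and the other 7 genes overlap between the groups.

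The enzymes for glutamine, arginine, lysine and aspartate were not called. Qars, the glutaminyl-tRNA synthetase, had lowest, median and highest levels of 80.8, 83.3 and 92.9 CPM in Mut and 75.8, 85.2 and 94.0 CPM in WT, so that every Mut library lay inside the WT range. Its log2 fold change was −0.01 with an interval of −0.15 to 0.13 (edgeR adjusted p = 0.950). Rars, the arginyl-tRNA synthetase, ran from 42.4 to 53.7 CPM in Mut with a median of 44.8, against 40.5 to 51.1 CPM in WT with a median of 47.0. All Mut libraries but replicate 3, which was higher, lay inside the WT range, and the log2 fold change was −0.01 (interval −0.18 to 0.16, edgeR adjusted p = 0.953).

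Kars makes lysyl-tRNA in both the cytosol and, from an alternative transcript, the mitochondrion. It ran from 67.6 to 79.2 CPM in Mut with a median of 72.3, and from 73.0 to 80.3 CPM in WT with a median of 73.8. Although 4 of the 6 Mut libraries lay below every WT library, the distance was small, with a log2 fold change of −0.03 (interval −0.16 to 0.10, edgeR adjusted p = 0.778). Dars, the aspartyl-tRNA synthetase, ran from 68.2 to 80.6 CPM in Mut with a median of 72.0, and from 57.1 to 73.4 CPM in WT with a median of 65.4. Mut replicates 5 and 7 were above all WT libraries, and the other 4 were above all but WT replicate 3. Dars averaged 72.7 ± 4.52 CPM in Mut and 65.7 ± 5.25 CPM in WT, a log2 fold change of 0.15 (SE 0.07, interval −0.01 to 0.30) that was not called (edgeR adjusted p = 0.199). With library totals alone it was 0.08 (edgeR adjusted p = 0.491).

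The scaffold genes were not called either, with wider intervals. Aimp1, whose product holds the arginine and glutamine enzymes and is also secreted as a cytokine precursor, ran from 30.2 to 48.2 CPM in Mut with a median of 32.1, against 29.6 to 45.5 CPM in WT with a median of 33.9. Mut replicate 7 was higher than every other library and the rest lay inside the WT range. The log2 fold change was −0.04 (SE 0.13, interval −0.32 to 0.23, edgeR adjusted p = 0.853). Aimp2, the scaffold on which the assembly is built, had the fewest reads, from 8.75 to 12.4 CPM in Mut with a median of 9.90 and from 7.64 to 11.96 CPM in WT with a median of 10.1, with a log2 fold change of 0.02 (interval −0.24 to 0.27, edgeR adjusted p = 0.939). Its reads are uncertain, because 487 exon bases, 29.4% of its exon length, coincide with Eif2ak1 on the other strand, a gene with 781 to 1079 reads per library. Aimp1 shares 163 exon bases (2.91%) with Tbck in the same way. Eef1e1 encodes a further scaffold protein of the complex and had 13.8 ± 3.18 CPM in Mut and 14.2 ± 2.41 CPM in WT (log2 fold change −0.04, interval −0.37 to 0.29, edgeR adjusted p = 0.899).

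The signs of Qars, Rars, Aimp1 and Aimp2 changed between settings, and that of Aimp2 also with the scaling, so no direction can be given for these 4 genes. Leaving out any single library kept the same 3 calls and added no other. With the replicate number as a block only Mars was called, while Eprs (edgeR adjusted p = 0.0770) and Lars (edgeR adjusted p = 0.117) were not. Summed over the 10 genes, transcript level was 666 to 752 CPM in Mut with a median of 703, and 578 to 611 CPM in WT with a median of 590. This sum includes Mars, Eprs and Lars, and does not show that each member was higher.

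The difference of Mars was then set against that of Iars itself, by taking within each library the log2 ratio of the reads of each partner to the reads of Iars, a quantity that library scaling cannot move. The ratio of Mars to Iars ran from 0.42 to 0.67 in Mut and from −0.32 to 0.14 in WT. All 6 Mut libraries were above all WT libraries, and the mean was 0.54 ± 0.09 in Mut and −0.14 ± 0.16 in WT, a difference of 0.68. In a two-sided exact permutation test over all 924 splits this gave p = 0.002165, the smallest that 6 against 6 libraries allow, or 0.0195 after Benjamini-Hochberg adjustment over the 9 partners.

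No other partner differed from Iars after adjustment. Kars came nearest, with a mean ratio of 0.44 ± 0.24 in Mut and 0.76 ± 0.28 in WT (difference −0.32, exact permutation p = 0.0498, adjusted 0.224). For Aimp1, Rars, Qars and Aimp2 the difference was −0.34, −0.30, −0.30 and −0.27 (adjusted exact permutation p between 0.269 and 0.357). Dars differed by −0.14 (exact permutation p = 0.429, adjusted 0.519). The ratios of Eprs and Lars, both called on their own, differed from Iars by 0.13 and 0.08 (exact permutation p = 0.461 and 0.641). The fold changes of these 2 genes could therefore not be told from that of Iars, whose ratio to either varied widely between libraries.

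**Figure D2:**
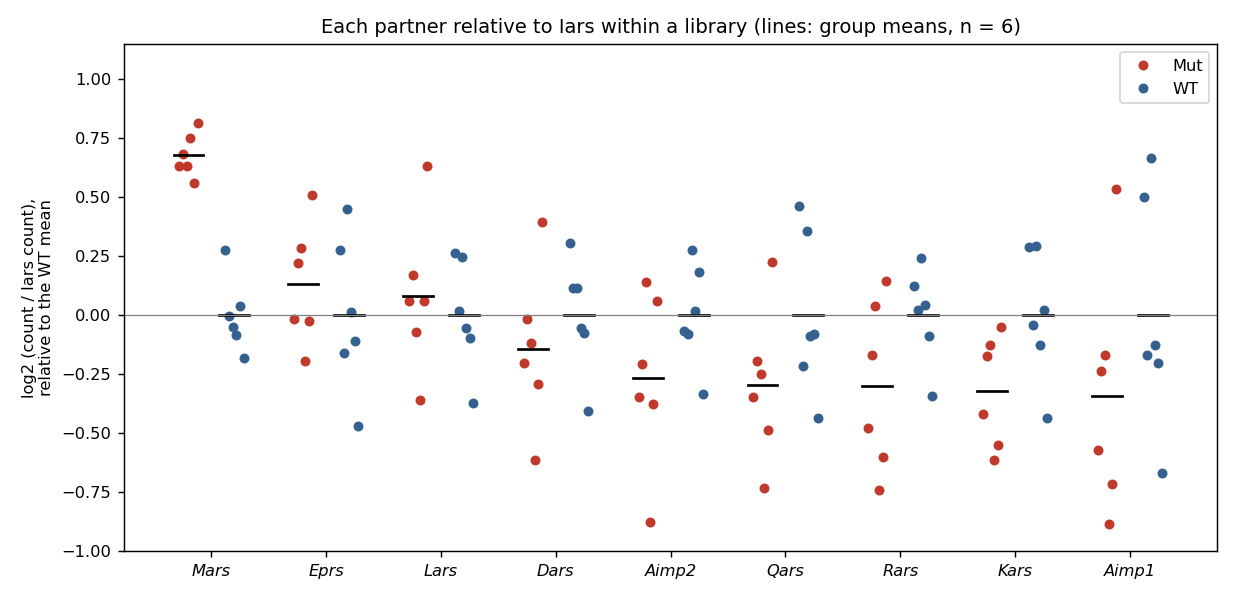
Log2 ratio of each partner's reads to the reads of Iars in the same library, relative to the WT mean (vertical axis), for Mut and WT libraries, with a line at each group mean. For Mars the 6 Mut points lie above all WT points, and for the other 8 partners the groups overlap.

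Synthetases that act outside the complex were examined for comparison. Of 12 free-standing cytosolic synthetase genes, all tested, 7 were higher and none was lower by edgeR (8 at an unadjusted p under 0.05), with a median log2 fold change of 0.62 and 9 positive signs. The highest of these was Cars, for cysteine, at 1.26 (SE 0.11, edgeR adjusted p = 1.55e-05), and the lowest was Tars, for threonine, at 0.62 (SE 0.08, edgeR adjusted p = 0.000406). The genes for tyrosine (Yars, 0.92), alanine (Aars, 0.81), asparagine (Nars, 0.72), glycine (Gars, 0.68) and serine (Sars, 0.62) lay between. Vars, the synthetase for valine, had the smallest value of that list (−0.14, edgeR adjusted p = 0.329). Among the complex genes only the value of Mars was in the range of those 7. Eprs and Lars were below all of them, although no test of that difference was made.

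Of 17 mitochondrial synthetase genes, all tested, none was called by edgeR, DESeq2 or limma-voom and 1 had an unadjusted edgeR p under 0.05, with a median log2 fold change of 0.06. That gene was Iars2, the mitochondrial isoleucyl-tRNA synthetase, which also had the highest value of the list (70.0 ± 8.72 CPM in Mut and 59.5 ± 8.22 CPM in WT, log2 fold change 0.23, SE 0.10, edgeR adjusted p = 0.156). Sars2 had the lowest (−0.19, edgeR adjusted p = 0.341). In its exons Iars2 shares 2034 bases with Rab3gap2 on the other strand. Neither isoleucyl-tRNA synthetase gene, cytosolic or mitochondrial, was therefore called in either direction.

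**Figure D3:**
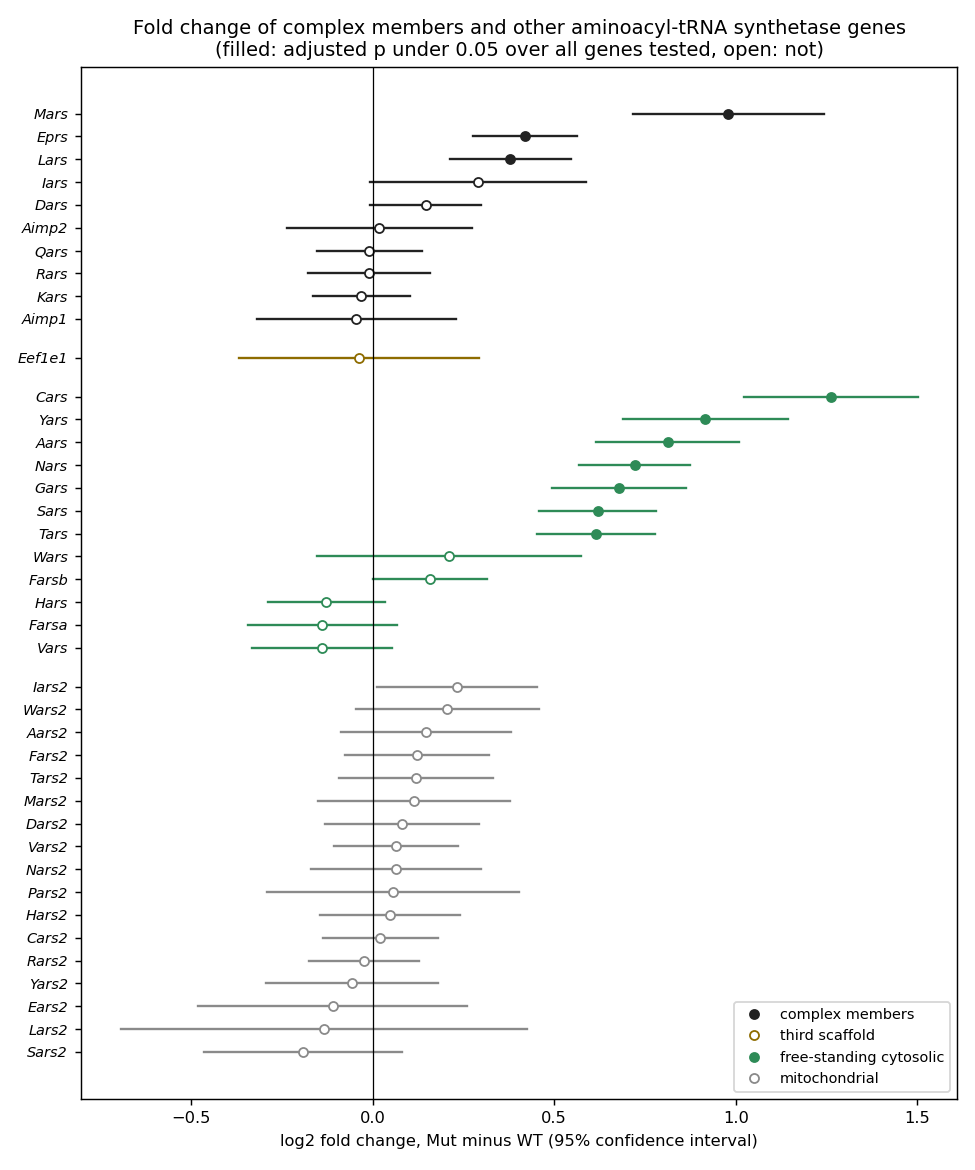
Log2 fold change, Mut minus WT, with 95% confidence interval (horizontal axis) for the 10 complex genes, Eef1e1, 12 free-standing cytosolic and 17 mitochondrial synthetase genes. Filled points were called, namely 3 complex and 7 free-standing genes, all to the right of 0.

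Levels were compared between the genes per length, first in the deposited FPKM (counts divided by the library total and a gene length). Ranked by mean FPKM, the order in Mut was Mars, Lars, Dars, Kars, Rars, Qars, Iars, Eprs, Aimp1 and Aimp2. In WT it was Kars, Lars, Dars, Rars, Qars, Mars, Iars, Eprs, Aimp1 and Aimp2. Mars stood at rank 1 in Mut with 22.8 ± 4.53 FPKM and at rank 6 in WT with 12.1 ± 1.62 FPKM, while Iars held rank 7 in both groups with 10.2 ± 2.01 FPKM in Mut and 8.68 ± 1.67 FPKM in WT. The ranges of neighbours in the order overlapped for 8 of 9 neighbouring pairs in Mut, all but Eprs over Aimp1, and for 9 of 9 in WT. Overlap of ranges does not show that neighbours were alike, because both genes were read in the same libraries. In WT, Kars was above Lars and Mars above Iars in every library, while Iars was not above Eprs in every one. The order of neighbours was not tested. Iars made up 5.78% to 9.32% of the summed FPKM of the 10 genes in Mut and 6.13% to 9.43% in WT, ranges that nearly coincide.

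The place of some genes depended on the length used. For 9 of the 10 genes the length behind the deposited FPKM equals all annotated exon bases in GENCODE M21 (for Lars it is 3856 against 5368). For Eprs this is 18102 bases although its longest coding transcript has 4906, for Aimp1 5596 against 1126, and for Qars 6572 against 2800. For Iars the figures are 5272 and 4426. Dividing instead by the longest coding transcript, a choice made after the data were seen, Eprs moved to rank 1 in Mut (34.08 ± 1.497 on the scale of FPKM) and rank 5 in WT (26.6 ± 1.63), and Iars to rank 9 in both groups (12.1 ± 2.40 in Mut and 10.3 ± 1.99 in WT). Mars was then at rank 6 in Mut (26.3 ± 5.24) and rank 8 in WT (13.9 ± 1.88). On either scale Iars was among the less abundant synthetases of the complex and Aimp2 was last.

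**Figure D4:**
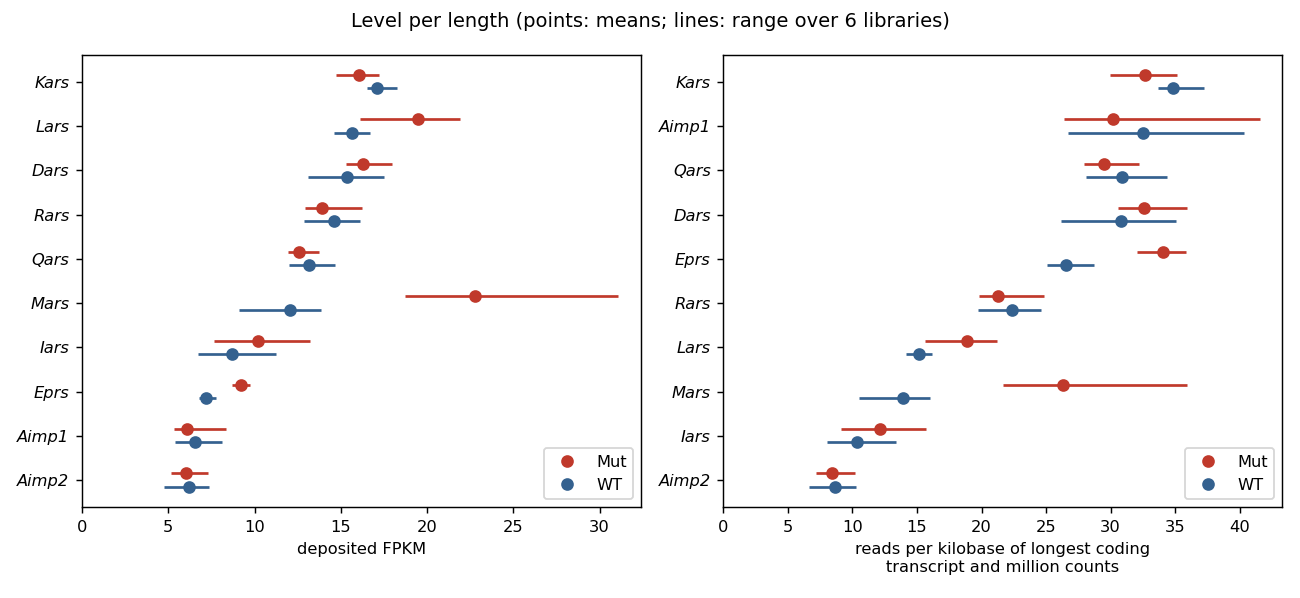
Level per length of the 10 genes (horizontal axes from 0) in deposited FPKM on the left and per kilobase of the longest coding transcript on the right, as mean (point) and range over 6 libraries (line), Mut above WT, ordered by the WT mean. The Mut range of Mars lies to the right of its WT range on both scales, and Eprs and Aimp1 change place between the scales.

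Across libraries of the same group, the level of Iars moved with that of Mars and against that of Aimp1. In Mut the correlation of log2 CPM between Mars and Iars was r = 0.945 (exact permutation p over 720 pairings = 0.00139, adjusted over 18 relations 0.0250), with Spearman's rho 1.00 (exact permutation p = 0.00278, adjusted 0.05). Without the 2 libraries farthest from the median of Iars it was 0.980. In WT it was 0.829 (exact permutation p = 0.0278, adjusted 0.167, rho 0.771 with p = 0.103 and adjusted 0.370, and 0.855 without the 2 farthest libraries). Whether the groups differed in this was not tested.

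For Aimp1 the correlation with Iars was −0.809 in Mut (exact permutation p = 0.0403, adjusted 0.181, rho −0.771 with p = 0.103 and adjusted 0.370, and −0.827 without the 2 farthest libraries). In WT it was −0.940 (exact permutation p = 0.0153, adjusted 0.138, rho −0.771 with p = 0.103 and adjusted 0.370, and −0.837 without the 2 farthest). With TMM scaling only Mars in Mut passed adjustment by Pearson's r, and no relation was below 0.05 by Spearman's rho after adjustment. Relative to summed FPKM, Eprs and Kars in Mut and Mars and Rars in WT passed by Pearson's r as well (values in the last section). With TMM scaling the other 7 partners had adjusted exact permutation p of at least 0.305 in both groups, for Pearson's r.

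In TMM-scaled CPM, the other members did not vary together as a block. The pairs were not examined under other scalings, and correlations with Iars depended on the scaling, as the last section shows. Taking each library's deviation from its group mean and all 12 libraries together, the 45 pairs among the 10 genes had correlations from −0.869 (Iars with Aimp1) to 0.888 (Iars with Mars), with a median of −0.01 and 21 positive values. Lars and Dars moved together (0.688), as did Rars with Aimp2 (0.653) and Qars with Aimp1 (0.647), while Mars moved against Aimp1 (−0.744). By the same measure Mars was at rank 74 of 19003 tested genes for likeness to Iars, Kars at rank 4595, Qars at rank 16114 and Aimp1 at rank 18942. The 5 genes most like Iars, of 11777 with a mean of at least 5 CPM after leaving out entries without a symbol, and those whose symbol marks a predicted gene, a clone or a pseudogene, were Dchs1 (0.977), Kirrel (0.967), Kpnb1 (0.957), Fam193a (0.956) and Armh3 (0.955). None of these 5 was called between Mut and WT (edgeR adjusted p from 0.227 to 0.976). These correlations over 12 libraries are descriptions, and all genes of a library share its depth and preparation.

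A broad axis of variation between libraries accompanied these correlations. Among 12646 genes of at least 5 CPM, 429 had a correlation above 0.8 with Iars and 289 one below −0.8. The first principal component of the deviations held 30.6% of their variance. Iars and Mars followed it with r = 0.826 and 0.821 and Aimp1 ran against it with r = −0.866. Across genes the correlation with Iars rose with the gene length behind the deposited FPKM (Spearman 0.505, genes not being independent). Ribosomal protein genes were taken from the large subunit only (symbols starting with Rpl), those of the small subunit being left out. All 48 of at least 5 CPM had a negative correlation with Iars, with a median of −0.777. The summed transcripts of these 48 genes ranged alike in both groups, from 9353 to 15180 CPM in Mut and from 9667 to 15320 CPM in WT.

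With that axis removed, a step added after the data were seen, the correlation of Iars with Mars over the 12 libraries was 0.652 and with Aimp1 −0.545. It was 0.606 for Aimp2 (0.234 before the removal), 0.543 for Rars (0.108), 0.533 for Kars (0.405) and 0.506 for Eprs (−0.0522). It was −0.392 for Qars (−0.527 before the removal), −0.292 for Dars (0.0429) and −0.211 for Lars (0.151). Of the 9 partners, 5 were thus positive and 4 negative. With the summed level of the large-subunit ribosomal protein genes as a covariate the same 3 genes were called (Mars 0.92, Eprs 0.43 and Lars 0.37, edgeR adjusted p = 4.69e-05, 0.00100 and 0.00671). Iars was then at 0.22 (edgeR adjusted p = 0.117). The covariate is that summed level, not the axis, and no fit with the axis as a term was made.

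**Figure D5:**
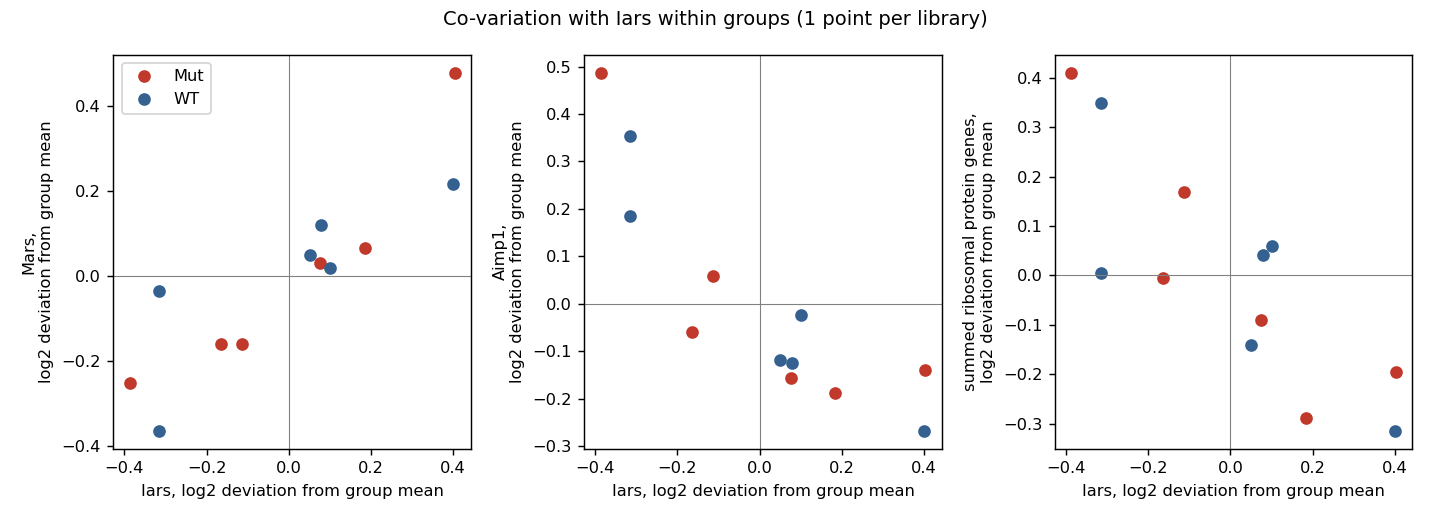
Deviation of each library from its group mean, on a log2 scale, for Iars (horizontal axes) against Mars, Aimp1 and the summed ribosomal protein genes of the large subunit (vertical axes), 6 Mut and 6 WT points each. The points run upward for Mars (r = 0.888 over 12 libraries) and downward for Aimp1 (r = −0.869) and for the ribosomal protein genes.

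Because several synthetase genes were higher together, their promoters (250 bases before to 50 after the start, RefSeq, GRCm38.p6) were searched on both strands for 2 motifs, TGATGNAA, in the manner of the amino acid response elements bound by ATF4, and the cyclic AMP response element TGACGTCA. The same stretch of bases cannot match both. Of the 10 members 8 had a promoter in the table, Rars and Lars being the ones without. TGATGNAA was in 1 of the 8, Iars, and TGACGTCA in none. Of the 12 free-standing genes 7 had a promoter, and TGATGNAA was in 4 of them, Aars, Gars, Tars and Yars, and TGACGTCA was in none. These 4 were among the 7 genes of that list called higher. Cars, Nars and Sars, also called, either had no promoter in the table or no match in it. Whether matches go with calls was not tested. Neither motif was in the 14 mitochondrial synthetase promoters of 17 genes. Over all 32851 promoters TGATGNAA was in 3.97% and TGACGTCA in 1.79%. A match is a description, not a site.

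For each of the synthetase genes with a match, 1 match is shown in a window of 30 bases, read along the gene's own strand, with the motif or its reverse complement in capitals. Counting is from 1 at the first transcribed base in RefSeq, with negative numbers before it. The first capital is at 8 in Iars, 10 in Aars, −30 in Gars, −15 in Tars and 4 in Yars. For Iars that RefSeq start lies downstream of the GENCODE M21 gene start given above. The positions are chr13:49682126-49682155 for Iars, chr8:111033840-111033869 for Aars, chr6:55037960-55037989 for Gars, chr15:11399655-11399684 on the minus strand for Tars and chr4:129189895-129189924 for Yars.
Iars: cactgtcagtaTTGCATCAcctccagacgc
Aars: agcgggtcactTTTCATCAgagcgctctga
Gars: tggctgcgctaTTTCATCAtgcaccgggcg
Tars: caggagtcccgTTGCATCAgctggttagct
Yars: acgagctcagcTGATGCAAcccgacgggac

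Mars and Eprs, the called complex genes with a promoter in the table, held neither motif in it, so that the single match among the complex genes was in Iars, which was not called. Their 250 bases before the start are given for comparison, at chr10:127311787-127312036 on the minus strand for Mars (55.2% G and C) and chr1:185362794-185363043 on the plus strand for Eprs (64.0% G and C).
Mars: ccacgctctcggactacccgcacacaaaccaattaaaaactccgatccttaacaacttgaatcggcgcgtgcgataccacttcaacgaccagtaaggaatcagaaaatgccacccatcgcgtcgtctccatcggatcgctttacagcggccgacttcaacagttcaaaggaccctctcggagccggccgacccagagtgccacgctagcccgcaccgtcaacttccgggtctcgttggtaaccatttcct
Eprs: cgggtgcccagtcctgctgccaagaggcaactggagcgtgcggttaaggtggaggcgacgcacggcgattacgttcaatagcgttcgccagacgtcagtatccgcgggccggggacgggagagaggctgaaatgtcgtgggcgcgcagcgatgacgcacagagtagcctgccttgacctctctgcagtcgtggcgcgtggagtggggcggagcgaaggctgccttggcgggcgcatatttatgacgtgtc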

How the data were processed

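Per the labels' protocols, libraries were made from poly(A) RNA captured on oligo(dT) beads, with random hexamer priming. The authors deposited counts, whole numbers of reads per gene and library, and FPKM, which were found to equal those counts scaled by total and gene length (checked for 18438 entries with at least 5 reads in every library). The build mm10 and limma are named per the submitters' processing notes, without role or version. Aligner, counter and annotation are not given in the sources used here.

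Symbols and coordinates came from GENCODE M21 and promoters from RefSeq (GRCm38.p6). In R 4.3.3, edgeR 4.0.16 tested all genes kept by filterByExpr (minimum count 10, minimum total 15) with TMM scaling, a robust quasi-likelihood fit with genotype as its only term and Benjamini-Hochberg adjustment over 19004 genes. The pipeline was tested on simulated data. Unannotated entries, 0.585% to 0.868% of counts per library, stayed in. TMM factors were 0.968 to 0.990 in Mut and 1.00 to 1.04 in WT. The biological coefficient of variation was 17.4%. Ratios and correlations used log2 values with a prior count of 0.5 and exact permutation tests in Python 3.11.15. Alternatives were other scalings and filters, DESeq2 1.42.0, limma 3.58.1 (voom, and log2(FPKM + 1) or log2(FPKM + 0.1)), a replicate block and each library left out. Added after the data were seen were a covariate of large-subunit ribosomal protein genes, another gene length and removal of the main library axis. No replicate pair of a group agreed within sampling noise (chi-square per degree of freedom at least 6.39).

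The members and the gene lists were chosen with earlier results of these data known. Named were all members, the called and extreme genes of the other synthetase lists, and the 5 genes whose deviations followed those of Iars most closely. A promoter window that the search found is not reported here.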

Additional observations from a re-analysis of the deposited data

Results flagged for a closer look

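In 4 of 44 groups of 6 libraries that were examined, 1 library lay far from the other 5, by a gap above 0.625 of the group's range. Chance gives about 1 in 20 for independent groups. These groups share libraries, and the ratios share Iars, so whether 4 of 44 is more than chance gives cannot be said. Mars in Mut replicate 4 read 109.6 CPM, while the other Mut libraries read 66.1 to 82.4 CPM, a gap that passed the limit only narrowly (0.625 of the range when rounded). Without that replicate the log2 fold change of Mars was 0.85 (edgeR adjusted p = 0.000359). Aimp1 in Mut replicate 7 read 48.2 CPM, while the other 5 ran from 30.2 to 35.8 CPM. The same Mut replicate 7 had the highest total, 24014890 counts, and the lowest Iars level of the Mut libraries (41.4 CPM). It also had the highest summed level of large-subunit ribosomal protein genes among them (15180 CPM). Kars in WT replicate 6 read 80.3 CPM, while the other WT libraries read 73.0 to 75.3 CPM.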

How the results depend on the processing

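Over 25 alternatives Mars was called in all 25 (log2 fold change 0.85 to 1.03), Eprs in 24 (0.32 to 0.45), Lars in 24 (0.29 to 0.43) and Iars in none (0.19 to 0.38, adjusted p 0.0777 to 0.399). Leaving out 1 library at a time gave 401 to 1163 higher and 556 to 1205 lower genes (fewest without WT replicate 5) and 3 called members each time. Higher genes numbered 518 with library totals alone, 389 on log2(FPKM + 1), 401 on log2(FPKM + 0.1), 2201 (with 2151 lower) by voom with quality weights and 1312 with the ribosomal covariate.

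Same-number correlations of −0.144 to 0.112, with no library matching its own number best, gave no sign of pairing. The replicate number could still mark pairs that such correlations miss. As a block it gave 74 higher and 33 lower genes and 1 called member, Mars, with Lars at 0.38 (adjusted p = 0.117), Eprs at 0.43 (adjusted p = 0.0770), Qars at 0.0041, and the ratio of Mars to Iars at 0.69 over 5 pairs (adjusted p = 0.5625), where the smallest possible p is 0.0625.

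Signs changed for genes near 0. Aimp2 was −0.014 with upper-quartile scaling, −0.042 with library totals, −0.0013 unfiltered, −0.073 by voom with weights, −0.034 and −0.038 on log2 FPKM, and −0.049 to 0.074 with 1 library left out. With 1 library left out Qars was −0.040 to 0.022, Rars −0.057 to 0.020, Aimp1 −0.16 to 0.033 and the ratio of Lars to Iars −0.028 to 0.17. With the covariate Qars was 0.0044 and Aimp1 0.017. In every scaling a gene and Iars were divided by the same library value. Correlations with Iars moved most when that value was summed FPKM. In Mut they were then 0.455 for Lars (0.031 with library totals), 0.526 for Qars, 0.933 for Eprs (adjusted p = 0.0167), 0.157 for Rars, 0.943 for Kars (adjusted p = 0.0167), 0.405 for Dars and 0.201 for Aimp2. In WT they were 0.901 for Mars (adjusted p = 0.0188), 0.255 for Qars, 0.469 for Eprs and 0.904 for Rars (adjusted p = 0.0300). By longest coding transcript Iars ranked 9 in Mut and 9 in WT, and Eprs 1 in Mut and 5 in WT. For each of these the cause was not tested. Correlations with 1 library left out were not run, since 5 libraries are too few. Depth limited Aimp2 most, with 162 to 239 reads in Mut and 154 to 219 in WT.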
